A study of Mus musculus with 12 samples.

Results

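mmu-miR-1949 and mmu-miR-690, called miR-1949 and miR-690 below, are 2 of the 1978 mouse microRNAs (miRNAs) counted in this small RNA sequencing study of stem cells. Both were chosen by measured values, the log2 fold changes and adjusted p-values of the pausing comparisons: the level was higher in paused than in control embryonic stem cells (ESC) and lower in paused than in control trophoblast stem cells (TSC), which give rise to the placenta. The study labelled 4 groups of 3 samples. They were E14 ESC paused through inhibition of mTOR, E14 ESC labelled WT and called control below, TSC paused in the same way, and TSC labelled WT. E14 is a mouse ESC line. The sources used here name neither the TSC line nor the inhibitor, its dose or its duration. In every group the file of replicate 3 held the same value as that of replicate 2 for all 1978 miRNAs, so each pair was counted once, which left 8 distinct libraries and n = 2 per group. The labels do not say that replicates came from separate cultures, so errors and p-values measure only the spread between these libraries, which may be technical. The standard errors and p-values of edgeR's fit use a spread pooled over all tested miRNAs, not that of each miRNA alone.

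A miRNA is cut from a hairpin-shaped precursor, and the mature strand guides a silencing complex to messenger RNAs that pair with its seed, the bases just after its first base. mTOR is a kinase that couples nutrient supply to protein synthesis and growth, and its inhibition puts mouse ESC into a reversible, slowly growing state that resembles the diapause of the early embryo. miR-690 is known in mouse as a cargo of vesicles from macrophages that improves insulin sensitivity. Neither miR-1949 nor miR-690 carries a 5p or 3p arm in its name, which is how miRBase lists a precursor with 1 annotated mature product.

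The mature miR-690 and the end of its hairpin are shown first because the same letters recur elsewhere in the genome. The mature form has its seed, bases 2 to 8, in capitals, from RefSeq on GRCm38.p6 (chr16:28599940-28599961, minus strand). The hairpin end (chr16:28599935-28599984, minus strand) has the whole mature form in capitals, as have the ends of other annotated miRNA hairpins, Gm24049 (chr2:27401901-27401951, plus strand) and Gm24048 (chr3:135147463-135147513, plus strand), read from the GENCODE M21 transcripts on GRCm38. In mature miR-3473b (chr10:41670774-41670793, plus strand, RefSeq) the capitals mark the stretch that it shares with the miR-690 hairpin.
miR-690: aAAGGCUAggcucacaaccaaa
miR-690 hairpin end: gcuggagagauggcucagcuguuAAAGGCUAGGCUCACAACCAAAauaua
Gm24049: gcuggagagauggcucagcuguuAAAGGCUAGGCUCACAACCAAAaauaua
Gm24048: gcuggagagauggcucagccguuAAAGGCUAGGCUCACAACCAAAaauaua
miR-3473b: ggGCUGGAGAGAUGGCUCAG

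The Mir690 hairpin of 109 bases (chr16:28599935-28600043) lies in an intron of Fgf12, on the strand of that gene, which encodes a fibroblast growth factor homologous factor that acts on sodium channels. The mature form spans bases 83 to 104 of the hairpin. An exact copy of its 22 bases was found in the transcripts of 19 of 55450 annotated genes, of which 16 were annotated miRNA genes, and these 19 genes lay on 12 chromosomes. The 18-base stretch shared with miR-3473b stood in 12 of those 16 miRNA genes and, on the sense strand, in 471 annotated genes. The seed AAGGCUA was held by 1 of the 1679 mature forms in the RefSeq table, miR-690 itself. The sources used here do not say how the authors' counting treated reads with several places in the genome, so the counts of miR-690 cannot be assigned to 1 locus.

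The Mir1949 hairpin of 70 bases (chr18:35554567-35554636, plus strand, GRCm38) has a different setting. It is exonic in AC121821.1, a noncoding gene, and intronic in Gm28285, and 66 of its 70 bases fall within an annotated small nucleolar RNA (snoRNA) of 141 bases (35554492 to 35554632) that bears the same name. Small nucleolar RNAs guide chemical modification of ribosomal RNA, and Snora74a, another of them, lies 2396 bases away. The whole hairpin was found in the transcripts of 2 annotated genes, the miRNA itself and AC121821.1. Reads from the snoRNA and from the miRNA hairpin cannot be told apart where they overlap. Of the 165 tested miRNAs with coordinates, 2 overlapped an annotated snoRNA on the same strand, miR-1949 and miR-3535. For miR-1949 the whole hairpin from GENCODE was compared, and for the others the mature form from RefSeq. Overlap of the mature miR-1949 itself was not tested.

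Annotated copies were counted for the miRNAs of the files. Of 1546 miRNAs with 1 annotated locus, 33.8% had a count in some library, against 18 of 83 (21.7%) of those with 2 or more loci. Of the 5 miRNAs with 10 or more loci, 3 had a count and 2 (40.0%) were tested, against 10.3% tested of those with 1 locus. Among these 5, miR-680 with 86 loci and miR-3471 with 52 loci had no count in any library, miR-3470b with 45 loci had 9 counts in all, and miR-3473b and miR-690 with 16 loci each had 350 and 211 counts. The predicted folds differed too. The miR-690 hairpin had a minimum free energy of -29.0 kcal/mol, or -0.266 per base, and 5.58% of 1004 mouse hairpins folded less stably per base, with 15 of the 22 mature bases paired. The miR-1949 hairpin had -25.3 kcal/mol, or -0.361 per base, with 31.6% of hairpins less stable, against a median of -0.407 per base.

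The libraries were shallow, with 61749 and 73574 counts in paused ESC, 13607 and 19266 in control ESC, 23652 and 30487 in paused TSC, and 18725 and 115492 in control TSC. Of the 1978 miRNAs, 1330 had no count and 206 passed the filter on low counts, which asked for about 10 counts in at least 2 libraries and kept both members. Levels below are CPM, counts scaled to a common library total with edgeR's TMM factors, with intervals for 95% that cover counting error only, since the labels mention no molecular identifiers. The cell types were set against marker miRNAs: miR-322 and miR-503, high in TSC, held 5.04% to 6.90% of the counts in paused TSC and 9.68% to 10.4% in control TSC, and at most 0.110% in any ESC library. The cluster of miR-302 and miR-367, typical of pluripotent cells, held 0.286% to 0.500% in control ESC, 0.00648% to 0.0122% in paused ESC and at most 0.00519% in TSC, so it marks the control ESC and not the paused ESC. The cluster of miR-290 to miR-295, known from both cell types, held 65.1% to 65.3% in paused ESC, 62.1% to 64.6% in control ESC, 58.1% to 59.1% in paused TSC and 48.6% to 55.2% in control TSC, and does not separate them.

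miR-1949 was most abundant in paused ESC, at 3916 and 4099 CPM (314 and 265 counts), against 638 and 511 CPM (14 and 8 counts) in control ESC. In TSC the order was turned round, with 0 and 90.7 CPM (0 and 3 counts) in paused libraries, against 701 and 482 CPM (55 and 8 counts) in control libraries. For the count of 0, a floor of 3 counts corresponds to 124 CPM in that library. Both paused ESC libraries stood far above every other library, both paused TSC libraries stood below every other library, and the control libraries of the cell types overlapped. In these bulk samples, fewer cells of a type with the miRNA and less of it per cell cannot be told apart.

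By count, miR-1949 was the 26th and 25th most counted of the 416 and 405 miRNAs seen in the paused ESC libraries, and the 96th and 108th in the control ESC libraries. In the control TSC libraries it stood 96th and 110th, close to its places in control ESC. Its mean level was 4007 ± 130 CPM in paused ESC and 575 ± 89.7 CPM in control ESC (SD, n = 2 each). The log2 fold change was 2.78 ± 0.44 (SE), and the pooled counts of 579 and 22 gave a ratio of 6.83, with a counting interval of 4.47 to 11.0. In TSC the mean was 45.4 ± 64.2 CPM in paused and 591 ± 155 CPM in control libraries (SD, n = 2 each), a log2 fold change of -3.52 ± 0.72. The pooled 3 and 63 counts gave a ratio of 0.0791, with an interval of 0.0159 to 0.242.

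miR-690 had 412 and 913 CPM (33 and 59 counts) in paused ESC, against 91.2 and 256 CPM (2 and 4 counts) in control ESC. In TSC it had 372 and 393 CPM (9 and 13 counts) in paused libraries, against 841 and 1505 CPM (66 and 25 counts) in control libraries. Within each cell type the paused and control libraries did not overlap, but the levels were low and the control ESC libraries lay near the limit of detection, where the floor of 3 counts corresponds to 137 and 192 CPM. The paused ESC libraries were apart from each other by more than their counting intervals, 283 to 578 CPM in replicate 1 and 695 to 1177 CPM in replicate 2, and so replicate error in this group exceeded counting error. The standard errors below rest on the pooled spread and do not carry this gap.

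The mean of miR-690 was 662 ± 354 CPM in paused and 173 ± 116 CPM in control ESC (SD, n = 2 each), a log2 fold change of 2.00 ± 0.59. Its pooled counts of 92 and 6 gave a ratio of 3.98, with an interval of 1.76 to 11.1. In TSC the mean was 383 ± 14.9 CPM in paused and 1173 ± 470 CPM in control libraries (SD, n = 2 each), a log2 fold change of -1.47 ± 0.44, with a ratio of the pooled 22 and 91 counts of 0.402 and an interval of 0.240 to 0.645. The interval in ESC is wide, as it rests on 6 control counts.

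**Figure D1:**
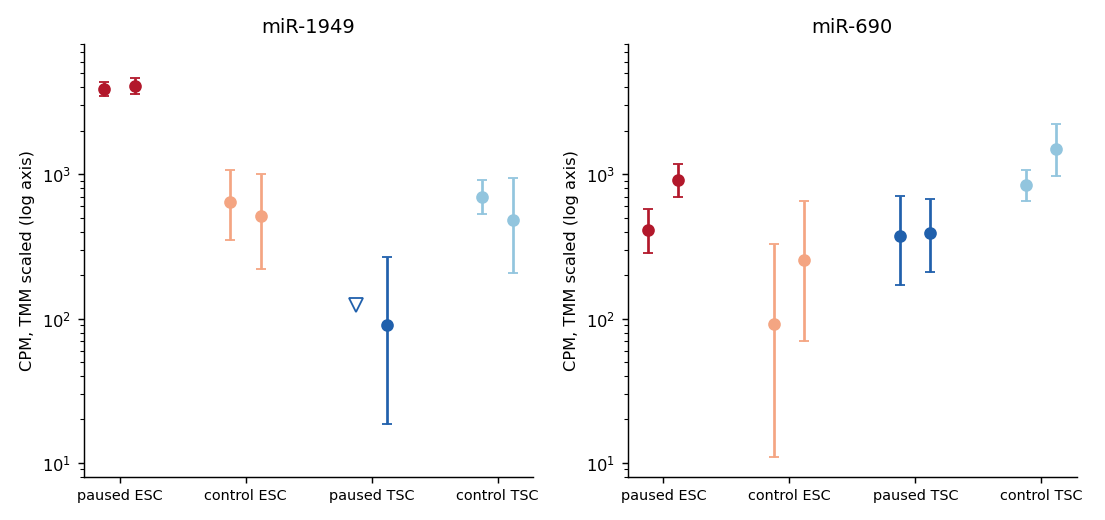
Level of miR-1949 and of miR-690 in each of the 8 distinct libraries, in TMM-scaled CPM on a log axis, with exact 95% counting intervals as bars. The open triangle marks a count of 0 at the floor of 3 counts, 124 CPM. miR-1949 reached 3916 and 4099 CPM in paused ESC and 0 and 90.7 CPM in paused TSC, while miR-690 was highest in control TSC at 841 and 1505 CPM.

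The values that chose the members are given as the criterion they met, not as support. By edgeR's quasi-likelihood test with Benjamini-Hochberg adjustment over the 206 miRNAs, a miRNA was called at an adjusted p under 0.05. Pausing raised 17 miRNAs (8.25%) and lowered 40 (19.4%) in ESC, 57 in all (27.7%). It raised 4 (1.94%) and lowered 35 (17.0%) in TSC, 39 in all (18.9%). The split depends on the scaling: with median-of-ratios scaling it was 29 higher and 37 lower in ESC and 6 and 18 in TSC, with TMM scaling without the cluster of miR-290 to miR-295 it was 41 and 33 in ESC and 6 and 13 in TSC, and with total counts alone it was 14 and 12 in TSC. The signs of the members, positive in ESC and negative in TSC, were held by 70 of the 206 (34.0%). Only 3 were called in both of these directions, miR-1949, miR-690 and miR-429-3p of the miR-200 family. In both of the opposite directions, 0 were called by edgeR, 0 passed an unadjusted p of 0.05 and 0 were called by DESeq2. Among the log2 fold changes in ESC, that of miR-1949 was the 5th highest and that of miR-690 the 9th highest of 206, and in TSC they were the 10th and the 44th lowest.

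Just inside the criterion, miR-429-3p had 898 and 650 CPM in paused and 319 and 320 CPM in control ESC, with a log2 fold change of 1.28 and an adjusted p of 0.0374 from edgeR. In TSC it had 496 and 181 CPM in paused and 955 and 602 CPM in control libraries, with -1.38 and 0.0258. miR-690 had adjusted p-values of 0.00451 in ESC and 0.0108 in TSC from the same edgeR test, and miR-1949 had 1.17e-08 and 2.41e-05. Just outside it were miR-337-3p, with log2 fold changes of 0.88 in ESC and -3.16 in TSC and edgeR adjusted p-values of 0.0876 and 0.0260, and miR-96-3p, with 1.42 and -1.50 and adjusted p-values of 0.0910 and 0.0437. These miRNAs were looked for only among those with the signs of the members, so their shared signs were fixed by the search and are no result.

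**Figure D2:**
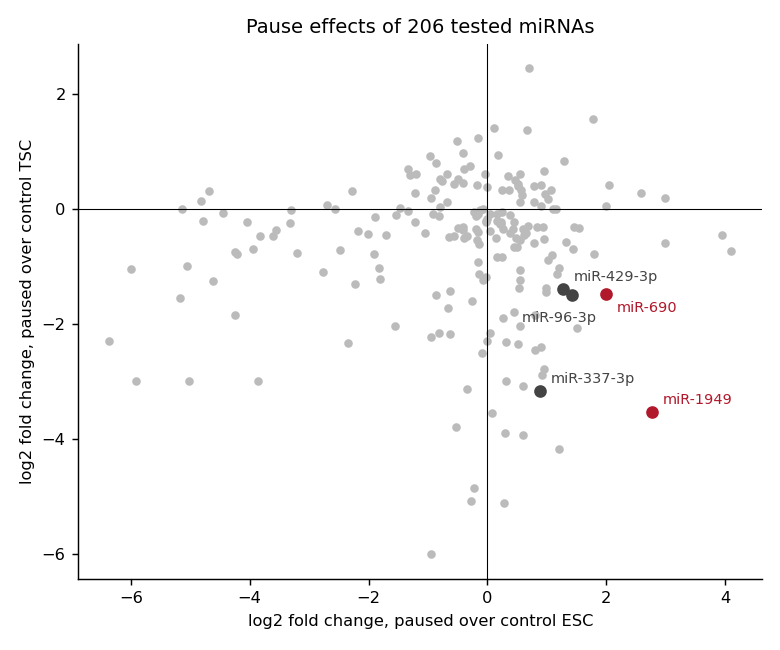
Log2 fold change of paused over control in ESC (x axis) and in TSC (y axis) for the 206 miRNAs tested by edgeR, 1 point each. miR-1949 at 2.78 and -3.52 and miR-690 at 2.00 and -1.47 are in red, and miR-429-3p, miR-337-3p and miR-96-3p, nearest to the edge of the criterion, in dark grey. All 5 lie at the lower right, as the choice on signs required.

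Without a test, 71 of the 206 miRNAs (34.5%) had both paused ESC libraries above both control ESC libraries, 74 (35.9%) had both paused TSC libraries below both control TSC libraries, and 27 (13.1%) had both patterns, the members among them. The fold changes also depend on the scaling. The median log2 fold change of all 206 miRNAs in TSC was -0.39 with TMM scaling and 0.08 with total counts alone. Relative to that median, the log2 fold change of miR-690 in TSC was -1.09 with TMM scaling and -1.09 with total counts, and that of miR-1949 was -3.14 and -3.09. A scaling moves every miRNA alike, so these values are near-equal by construction. Across 17 alternatives, miR-1949 stayed under an adjusted p of 0.05 in 17 in ESC and 16 in TSC, and miR-690 in 14 in ESC and 5 in TSC, with edgeR's or DESeq2's test. The lower level of miR-690 in paused TSC was thus the value that most often missed the criterion by which it was chosen. The alternatives include a setting that counts identical files as separate libraries, so passing there adds no support.

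**Figure D3:**
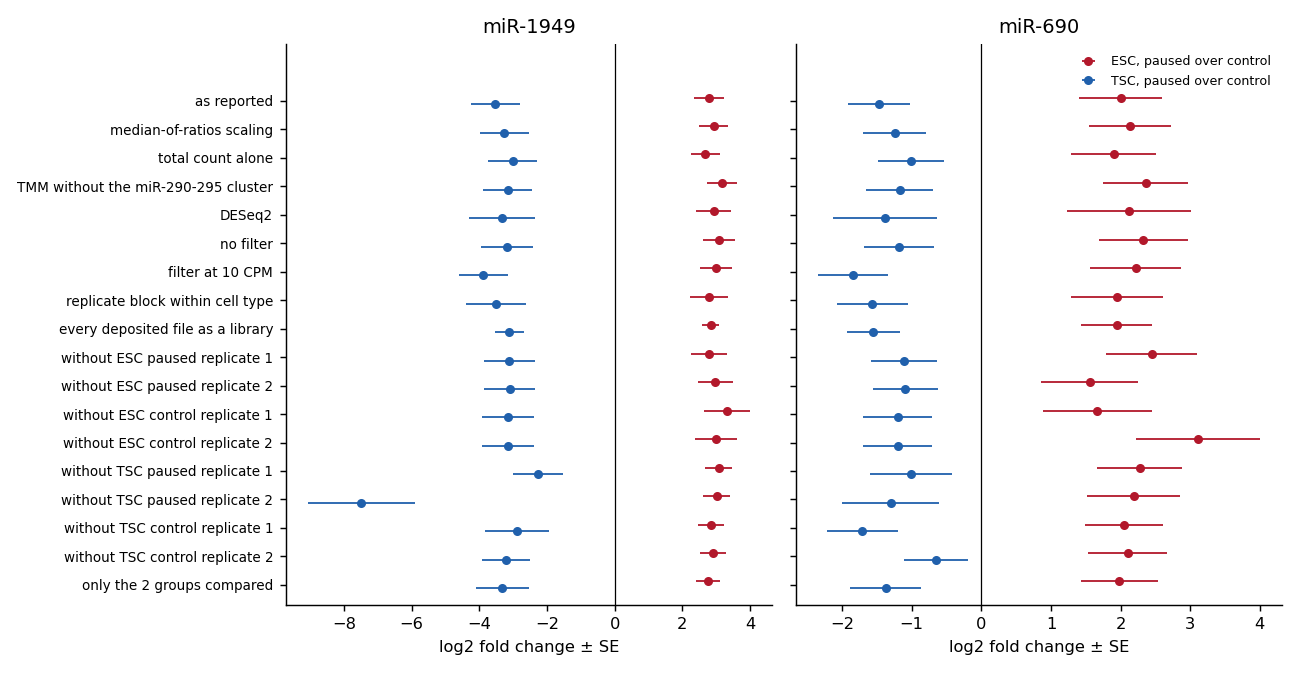
Log2 fold change of paused over control with its standard error for miR-1949 and miR-690 as reported and under 17 alternatives, in ESC (red) and TSC (blue). Every point keeps its side of 0, the side on which the members were chosen. The values of miR-690 in TSC run from -1.84 to -0.66, and the value of -7.49 for miR-1949 comes from a fit whose remaining paused TSC library had 0 counts.

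The order of the groups differed between the members. miR-1949 was highest in paused ESC, with control TSC and control ESC next and not apart, and paused TSC last. Between the cell types it was higher in paused ESC than in paused TSC, with a log2 difference of 6.19 ± 0.61 and a ratio of pooled counts of 76.3 (26.0 to 371), while in control cells the log2 difference was -0.11 ± 0.50 and the ratio 0.884 (0.518 to 1.46). miR-690 was highest in control TSC, followed by paused ESC with an overlap, then by paused TSC, which fell below both paused ESC libraries, and control ESC last. Its difference of ESC minus TSC was 0.76 ± 0.44 on the log2 scale in paused cells, with a ratio of 1.65 (1.03 to 2.77), and -2.71 ± 0.58 in control cells, with a ratio of 0.167 (0.0597 to 0.377). The values within a state share their libraries with the contrasts that chose the members and are descriptions.

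The cell type difference averaged over both states was not a criterion of the choice, and it was tested. It uses the same libraries as the pausing comparisons, and at unequal depth its estimate is only approximately independent of them. miR-1949 had 3 pooled counts in paused TSC and miR-690 had 6 in control ESC, groups where the choice asked for a low level. A low value there moves the average up for miR-1949 and down for miR-690, the directions found. The p-values below are thus not free of the choice. For miR-1949 the log2 difference was 6.19 in paused and -0.11 in control cells, so its average rests on the paused libraries. miR-1949 was higher in ESC, by 3.04 ± 0.43 on the log2 scale (adjusted p 6.37e-12, edgeR's quasi-likelihood test), where 86 of 206 miRNAs (41.7%) were called higher and the median of all was -0.29. Its ESC libraries spanned 511 to 4099 CPM and its TSC libraries 0 to 701 CPM, so the cell types overlapped, and an exact two-sided permutation test on 4 against 4 libraries gave p = 0.114, where 0.0286 is the smallest possible. miR-690 was lower in ESC, by -0.97 ± 0.39 (edgeR adjusted p 0.0148), where 97 (47.1%) were called lower. That call was lost in 12 of 17 alternatives, with a smallest size of -0.30, and the exact permutation test gave p = 0.286. The replicate block, where the call was kept, compares the cell types at the level of replicate 1 and so another quantity. With 88.8% of all tested miRNAs called between the cell types, a call is near the background.

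The members did not resemble each other across the 8 libraries. The Pearson correlation of their log2 CPM was 0.198 (n = 8 libraries, in which the 4 groups and their depth are shared), so miR-690 was the 91st of 205 miRNAs by likeness to miR-1949. The nearest to miR-1949 were miR-337-3p (r = 0.898), miR-425-5p (0.888), miR-410-3p (0.886), miR-295-5p (0.875) and miR-379-3p (0.865). miR-337-3p, miR-410-3p and miR-379-3p lie on chromosome 12, in the large imprinted miRNA cluster of the Dlk1-Dio3 region. miR-295-5p belongs to the cluster of miR-290 to miR-295, which is abundant in both cell types here.

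The chromosome 12 miRNAs had the low level in paused TSC in common with miR-1949 but not its equal level in the control cells. miR-379-3p had 2556 and 2166 CPM in paused ESC, 1595 and 1534 CPM in control ESC, 0 and 30.2 CPM in paused TSC, and 166 and 181 CPM in control TSC. miR-337-3p had 1771 and 1995 CPM in paused ESC, 912 and 1150 CPM in control ESC, 0 and 30.2 CPM in paused TSC, and 178 and 181 CPM in control TSC. The TSC levels of both rest on few counts. In paused TSC each had 0 and 1 counts, below the floor of 3 counts. In control TSC miR-379-3p had 13 and 3 counts and miR-337-3p 14 and 3. In control cells the log2 difference of ESC minus TSC was 3.19 ± 0.53 for miR-379-3p and 2.49 ± 0.53 for miR-337-3p (SE). For miR-1949 it was -0.11 ± 0.50, and its difference on pausing of ESC was larger than theirs. Differences between the cell types were common, with 88.8% of tested miRNAs called on the average over both states.

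The nearest to miR-690 were miR-712-3p (r = 0.859), miR-3535 (0.816), miR-712-5p (0.810), miR-542-3p (0.777) and miR-6240 (0.765), and miR-1949 was 78th of 205. The 3 of these with a mature sequence in the RefSeq table are shown with seeds in capitals, because none has the seed of miR-690 and their longest run of letters shared with mature miR-690 was 3 to 5 bases: miR-3535 (chr1:86352062-86352087, minus strand), miR-542-3p (chrX:53049415-53049436, minus strand) and miR-6240 (chr5:114851973-114851998, plus strand), all on GRCm38.p6.
miR-3535: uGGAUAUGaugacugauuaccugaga
miR-542-3p: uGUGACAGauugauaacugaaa
miR-6240: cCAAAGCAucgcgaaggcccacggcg

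The replicates of paused ESC also differed among these miRNAs. In paused ESC, replicate 2 stood above replicate 1 for miR-690, at 913 against 412 CPM, for miR-712-3p, at 433 against 112 CPM, and for miR-3535, at 572 against 175 CPM. It stood above by a smaller ratio for miR-712-5p, at 511 against 399 CPM, and miR-6240, at 1500 against 935 CPM, and below for miR-542-3p, at 325 against 486 CPM. miR-712-3p had 112 and 433 CPM in paused ESC, 91.2 and 192 CPM in control ESC, 289 and 212 CPM in paused TSC, and 1490 and 2046 CPM in control TSC. It shared with miR-690 its highest level in control TSC, and its paused and control ESC libraries overlapped, which those of miR-690 did not. miR-3473b, which shares the 18-base stretch with the miR-690 hairpin, was not among the nearest: its log2 fold change was -4.69 in ESC, opposite to that of miR-690, and 0.32 in TSC.

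**Figure D4:**
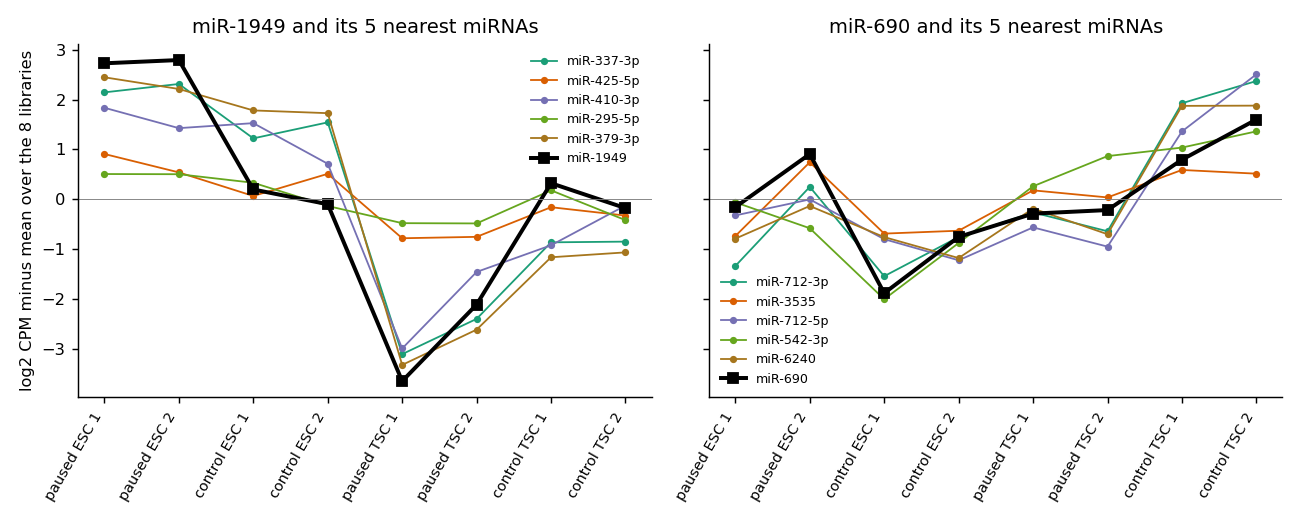
Log2 CPM in each of the 8 libraries minus the mean over them, for miR-1949 (left, black squares) and miR-690 (right, black squares) and for the 5 miRNAs with the highest Pearson correlation to each (coloured lines). The nearest of miR-1949 are lowest in paused TSC. Of the nearest of miR-690, 4 are highest in control TSC, and miR-3535 is highest in paused ESC replicate 2. The correlation between miR-1949 and miR-690 was 0.198.

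The members were also set beside miRNA entries named without an arm, as they are. Of 321 such entries, 57 had a count and 13 were tested, miR-1949 and miR-690 included. In ESC, 2 of the 13 were called higher on pausing, the members themselves, against 8.25% of all tested miRNAs, and 4 lower, against 19.4%. The median log2 fold change was 0.00, against -0.03 over all tested miRNAs. That median is the value of miR-669i, whose fit in ESC also gave an SE of 0, so it carries little meaning. In TSC, 0 were called higher by edgeR, 0 at an unadjusted p of 0.05 and 0 by DESeq2. There 8 were called lower by edgeR, against 17.0% of all tested miRNAs, with a median of -1.47 against -0.39 over all tested miRNAs. Both members are among these 8, and the median is the value of miR-690 itself, so the entries are no independent background for them. Of 15 entries that likely hold fragments of other RNAs, such as miR-5126, miR-2137, miR-6240, miR-1983 and the arms of miR-712, 8 were tested. In paused ESC 3 of the 8 were called lower, against 19.4% of all tested miRNAs, with a median of -0.02, and in paused TSC 7 of the 8, against 17.0%, with a median of -2.25. The background in TSC moves with the scaling, with 35 miRNAs called lower with TMM and 12 with total counts alone.

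These fragment entries held 2.10% to 3.51% of the counts in paused ESC, 3.65% to 3.98% in control ESC, 3.65% to 4.10% in paused TSC and 11.1% to 15.1% in control TSC. They were thus highest in the libraries in which miR-690 was highest, and lower in paused than in control TSC as both members were. In ESC their summed share was lower in paused than in control libraries, but the entries differed: miR-3473b, miR-5099 and miR-1983 fell, with log2 fold changes of -4.69, -2.23 and -1.56, while miR-6240 and both arms of miR-712 (3p and 5p), all among the nearest to miR-690, had 0.52, 0.96 and 0.92, which did not pass edgeR's test. Their part in the lower levels of miR-1949 and miR-690 in paused TSC was not tested.

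Markers of other cells were set beside the members as well. Of 18 feeder fibroblast entries 14 had a count, and miR-199a-3p, miR-199a-5p, miR-199b-3p and miR-10b-3p had none. Their shares were 0.377% to 0.430% in paused ESC, 0.412% to 0.462% in control ESC, 1.90% to 2.68% in paused TSC and 1.20% to 1.51% in control TSC. Of the 4 tested feeder entries, 1 was called in TSC, miR-21a-5p, which was higher on pausing by 0.97 (edgeR adjusted p 0.0294). The others had log2 fold changes in TSC of -1.18 for miR-143-3p, 0.12 for miR-22-5p and -0.11 for miR-22-3p, which did not pass. Of 11 blood cell entries 7 had a count, and miR-451a, miR-144-5p and both arms of miR-223 had none. Their shares were 0.486% to 0.576% in paused ESC, 0.893% to 1.12% in control ESC, 0% to 0.00423% in paused TSC and 0% to 0.0130% in control TSC. The 3 tested blood cell entries moved unlike each other. By edgeR's quasi-likelihood test miR-142a-5p and miR-142a-3p fell in paused ESC, with log2 fold changes of -4.25 and -3.86, and miR-150-5p rose by 1.20 (adjusted p 0.00813), as the members did. miR-150-5p had 4739 and 4316 CPM in paused ESC, 2461 and 1406 CPM in control ESC, 0 counts in both paused TSC libraries, and 5 and 0 counts in control TSC. The part of either in the values of the members was not tested. Of 11 entries of muscle, nerve and liver, 1 had a count, and its share was at most 0.00519% of any library.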

How the data were processed

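The deposited files hold raw counts, whole numbers per miRNA, made by the authors from reads of size-selected small RNA libraries; per the submitters' processing notes the genome build was GRCm38. The aligner was not given in the sources used here. Per the labels' protocols, 75 bp single-end reads were sequenced. Files with identical values were counted once. Counts were fitted with edgeR 4.0.16 in R 4.3.3 (TMM scaling, filterByExpr with a minimum count of 10, quasi-likelihood test, 1 mean per group over the 4 groups, Benjamini-Hochberg adjustment over 206 miRNAs, threshold 0.05), with a common dispersion of 0.0456 4 residual degrees of freedom and an infinite prior degrees of freedom, so that every miRNA takes the pooled quasi-dispersion. The tested miRNAs held at least 98.1% of the counts of every library. Likeness is Pearson's r of log2 CPM with a prior count of 2. DESeq2 1.42.0, other scalings, filters and left-out libraries were alternatives. Hairpins were folded with RNAfold 2.7.2. The members and the miRNA lists were chosen with earlier results of these data known. Named miRNAs are the members, the 5 nearest to each by r, those at the edge of the criterion, and called members of the lists. Totals of 13607 to 115492 counts per library limit the precision, and a floor of 3 counts stands for a count of 0. The sequence of mature miR-1949 is not reported here.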

Additional observations from a re-analysis of the deposited data

Results flagged for a closer look

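For each of the following miRNAs the paused and control libraries did not overlap in either cell type, and the paused libraries lay on opposite sides of their controls in ESC and in TSC. The difference of the pause effects, ESC minus TSC, was 6.30 ± 0.82 (SE) on the log2 scale for miR-1949 and 3.47 ± 0.74 for miR-690. Among the miRNAs nearest to miR-1949 it was 4.04 ± 1.1 for miR-337-3p, 1.16 ± 0.74 for miR-425-5p, 0.80 ± 0.46 for miR-295-5p and 3.67 ± 1.2 for miR-379-3p. Among those nearest to miR-690 it was 3.80 ± 0.72 for miR-712-5p and 1.90 ± 0.74 for miR-542-3p. At the edge of the criterion it was 2.66 ± 0.68 for miR-429-3p and 2.92 ± 0.86 for miR-96-3p. For miR-21a-5p, a feeder fibroblast entry, it was -1.37 ± 0.50, the reverse of the members. How many of all tested miRNAs have that reverse pattern was not counted. These differences were not tested. Among all miRNAs, 27 of the 206 tested miRNAs (13.1%) had paused ESC above control ESC and paused TSC below control TSC without overlap.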

How the results depend on the processing

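Depth limits most values: miR-690 had 6 counts over both control ESC libraries and miR-1949 had 3 over both paused TSC libraries. All pause effects of the members kept their direction in 17 alternatives. The members were chosen on these directions and their paused and control libraries did not overlap, so leaving out 1 library could hardly turn them. The kept directions therefore add no support. That of miR-1949 in ESC, 2.78, was 3.17 with TMM scaling without the miR-290 to miR-295 cluster, 3.07 with no filter and 3.00 with a filter at 10 CPM. Leaving out 1 library at a time gave 2.78 to 3.32 for miR-1949 and 1.56 to 3.11 for miR-690 in ESC, and -7.49 to -2.26 for miR-1949 and -1.71 to -0.66 for miR-690 in TSC. The value of -7.49 comes from leaving out paused TSC replicate 2, which leaves 0 counts in that group, and is no bound. miR-1949 missed the threshold in TSC without paused TSC replicate 1 (adjusted p 0.0578, edgeR). miR-690 missed it in ESC with DESeq2 (0.0778), without paused ESC replicate 2 (edgeR, 0.0857) and without control ESC replicate 1 (edgeR, 0.124), and in TSC in 12 alternatives (0.0651 to 0.405, edgeR or DESeq2); leaving out control TSC replicate 2 gave -0.66.

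The cell type difference of miR-1949 was 2.76 to 5.44 without 1 library. The value of 5.44 comes from leaving out paused TSC replicate 2, which leaves 0 counts in that group, and is no bound. In the exact permutation test it was 2.81 and did not pass (p = 0.114). The cell type difference of miR-690, -0.97, no longer passed with median-of-ratios scaling (-0.53), total counts alone (-0.68), TMM scaling without the miR-290 to miR-295 cluster (-0.30) or DESeq2 (-0.57). Nor did it pass with no filter (-0.64), a filter at 10 CPM (-0.62) or the exact permutation test (-0.94). Without 1 library it was -1.21 to -0.49. It stayed past the threshold when every deposited file was taken as a library, but that setting counts identical files as separate libraries and understates the error. The causes were not tested.

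The 57 miRNAs called on pausing of ESC became 37 with DESeq2, 94 with every deposited file taken as a library and 41 to 75 without 1 library. The 39 called in TSC became 24 with median-of-ratios scaling, 26 with total counts alone, 19 with TMM scaling without the miR-290 to miR-295 cluster, 12 with DESeq2, 16 with no filter, 19 with only the TSC groups and 7 to 32 without 1 library. The split of higher against lower calls moved in TSC, 4 against 35, to 14 against 12 with total counts alone, and in ESC, 17 against 40, to 41 against 33 with TMM scaling without the miR-290 to miR-295 cluster. The 183 calls between cell types were 172 to 195 without 1 library. Whether replicate numbers pair the samples was not settled. Deviations of same-numbered paused and control libraries correlated at -0.07 in ESC and -0.18 in TSC. With so few libraries per group and low counts, noise can hide a pairing, so these values cannot decide it. With the number as a replicate block, 44 were called in ESC and 12 in TSC. With crossed TSC numbers, an alternative chosen after seeing the data, 53 were called in ESC and 25 in TSC. The block kept the calls of both members between the cell types.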
